A study of Mus musculus with 30 samples.

Results

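Cd68, Adgre1, Csf1r, Lyz2, Mpeg1, Ms4a7, Aif1 and Itgam are genes by which mouse macrophages are commonly recognised, and they were followed here in subcutaneous tumours grown from EL4, a lymphoma line of mouse T cells. The 8 symbols were looked up in the platform's list of probes and genes to find their rows of the deposited table. Each symbol had 1 row that carried no other gene, so all 8 were measured and tested among 19938 genes. A further 3 rows carry both Rpl35 and Itgam and were not used.

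The 30 tumours form 6 groups of 5, each hybridised to its own Affymetrix mouse gene array. Mice whose titles read WT had either been given a cocktail of antibiotics (labelled ABX) for 3 weeks or had not (labelled H2O, here called water) before EL4 cells were implanted under the skin of the flank. All 30 tumours are EL4 transplants in mice assigned to oxaliplatin, a platinum drug that damages DNA, at 10 mg per kg into the peritoneum, and were taken at 0, 6 or 18 h after the injection. The labels give no strain, sex or age of the mice and no content of the cocktail. Whether the arrays of a group are from different mice is not stated, so p-values reflect only how far these samples differ, which may include technical differences. No drug-free tumours at 6 or 18 h were analysed here, so the drug and the passing of time cannot be told apart. Arrays of a group are numbered 1 to 5 by order of deposit, and a number pairs nothing between groups.

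Macrophages are phagocytes that live in every tissue and also arise from blood monocytes that enter inflamed or growing tissue, tumours included. Their survival depends on the receptor encoded by Csf1r, which binds the growth factors CSF1 and IL34, and the transcription factor PU.1, encoded by Spi1, drives much of their gene programme. Dying tumour cells are among the material they engulf and digest in lysosomes. The 8 genes cover several of these functions. Csf1r is the growth factor receptor, Adgre1 encodes the classical mouse macrophage surface antigen of the adhesion receptor family, and Itgam encodes CD11b, the integrin alpha chain that pairs with the beta chain of Itgb2 to bind complement and ICAM1. Cd68 encodes a heavily glycosylated protein of endosomes and lysosomes, Lyz2 the secreted lysozyme that cleaves bacterial cell walls, and Mpeg1 perforin-2, a pore-forming protein of phagosomes. Ms4a7 encodes a membrane protein of the CD20-like family, and Aif1 encodes IBA1, an actin-binding protein of the ruffling cell edge. Itgam and Lyz2 are also expressed by neutrophils, so these are not each exclusive to macrophages.

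The T cell line was checked on 8 T cell genes. The means of Zap70, Cd3d, Cd5, Cd3e, Cd3g, Thy1 and Lat ranked between the 86.5th and 99.1st percentile of all genes and that of Cd2 at the 54.4th, a coarse check, since signals of different array rows also depend on their probes. Keratinocyte genes were high on single arrays: the mean of their list, with each gene centred on its own mean, was 2.54 for array 1 of the water 6 h group and 2.44 for array 1 of the antibiotic 6 h group. The same measure for skeletal muscle genes was 1.61 on antibiotic 6 h array 5. Where leaving out these 3 arrays changed the call of a member, or ended that of a related gene given with its values, this is stated with the result. In a bulk tumour, fewer macrophages and less RNA of these genes per macrophage cannot be told apart.

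The start regions of 6 of the 8 genes were read from RefSeq (mouse build GRCm38.p6), as the 250 bases before each annotated start. The windows number 7 because Ms4a7 has 2 starts. They are shown because the regulator PU.1 binds a core of the letters GAGGAA and related ETS factors the letters GGAAGT, and because the gene Spi1, which encodes PU.1, had the pattern most like that of the 8 genes across the arrays. Capitals mark matches to either motif on either strand. Adgre1 was not listed and Csf1r was left out, so neither is part of the motif counts below.

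Cd68 (chr11:69666171-69666420, minus strand): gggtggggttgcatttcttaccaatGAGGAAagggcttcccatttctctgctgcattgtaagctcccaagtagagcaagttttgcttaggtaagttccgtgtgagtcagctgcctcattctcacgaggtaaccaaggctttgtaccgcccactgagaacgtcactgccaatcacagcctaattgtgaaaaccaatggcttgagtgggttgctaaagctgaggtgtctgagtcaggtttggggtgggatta

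Itgam (chr7:128062390-128062639, plus strand): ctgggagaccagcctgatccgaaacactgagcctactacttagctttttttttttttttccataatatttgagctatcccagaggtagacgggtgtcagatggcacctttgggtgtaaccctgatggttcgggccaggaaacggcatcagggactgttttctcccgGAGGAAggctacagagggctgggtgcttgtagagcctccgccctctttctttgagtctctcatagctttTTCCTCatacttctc

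Ms4a7 (chr19:11336147-11336396, minus strand, upstream start): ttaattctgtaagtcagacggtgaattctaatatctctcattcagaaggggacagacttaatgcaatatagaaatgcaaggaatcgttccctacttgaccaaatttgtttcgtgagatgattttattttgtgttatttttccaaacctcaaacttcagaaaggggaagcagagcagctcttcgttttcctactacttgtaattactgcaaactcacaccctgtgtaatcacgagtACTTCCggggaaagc

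GAGGAA was present in 3 of the 6 genes. It lay 225 bases before the start in Cd68, 84 and 15 bases before it in Itgam and 7 bases before it in Aif1. GGAAGT was present in 2 genes, 15 bases before the upstream start of Ms4a7 and 100 bases before that of Lyz2. Of 32851 promoter windows of the same length, 23.3% held GAGGAA and 19.7% held GGAAGT, so matches of this kind are common. For AP-1 a loose pattern, TGANTCA with any letter at N, was searched. It was found in 2 places in Cd68, both as TGAGTCA, the nearer 24 bases before the start. The second window of Ms4a7 held it as TGATTCA. Of all windows 6.7% held the loose pattern. TTGCNNAA, a motif of C/EBP factors, was found in Cd68 alone of the 6 genes, against 9.6% of all windows. The Mpeg1 window held none of the 4 motifs. A match is a stretch of letters and not a measured binding site.

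Lyz2 has a near copy beside it on the same chromosome, Lyz1, best known from Paneth cells of the gut. The last 120 bases before their starts are printed to show how alike the neighbours are, with the run of 50 shared bases next to the start in capitals.

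Lyz2 (chr10:117282273-117282392, minus strand): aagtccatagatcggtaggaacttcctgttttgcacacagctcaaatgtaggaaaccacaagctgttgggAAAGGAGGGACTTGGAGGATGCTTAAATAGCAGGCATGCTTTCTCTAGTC

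Lyz1 (chr10:117292869-117292988, minus strand): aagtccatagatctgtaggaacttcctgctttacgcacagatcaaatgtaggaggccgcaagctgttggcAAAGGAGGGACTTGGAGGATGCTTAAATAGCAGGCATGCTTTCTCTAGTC

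Of these 120 positions 111 were identical (92.5%), and of the full 250 positions 152 were (60.8%). The windows were compared position by position without gaps, so an insertion or deletion in either would lower these values. Whether probes of the Lyz2 row also bind transcripts of Lyz1 was not analysed here, so the signals of the 2 neighbours may not be fully separate.

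The first question was whether tumours of antibiotic-treated mice carried the same levels of macrophage genes as those of water mice. All 8 genes had lower means in the antibiotic group than in the water group at 0, 6 and 18 h. The gap was widest at 18 h, where the median of the 8 log2 differences was -0.38, against -0.01 over all genes. At 0 h the median of the 8 was -0.19 and at 6 h -0.20, against -0.01 and 0.01 over all genes. At 18 h Cd68 and Ms4a7 were lower with antibiotics, at 0.69 and 0.74 times the water level, and Cd68, Ms4a7 and Mpeg1 were lower when the 3 times were averaged. In each comparison a gene was called at a Benjamini-Hochberg adjusted p under 0.05 from limma over all genes.

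**Figure D1:**
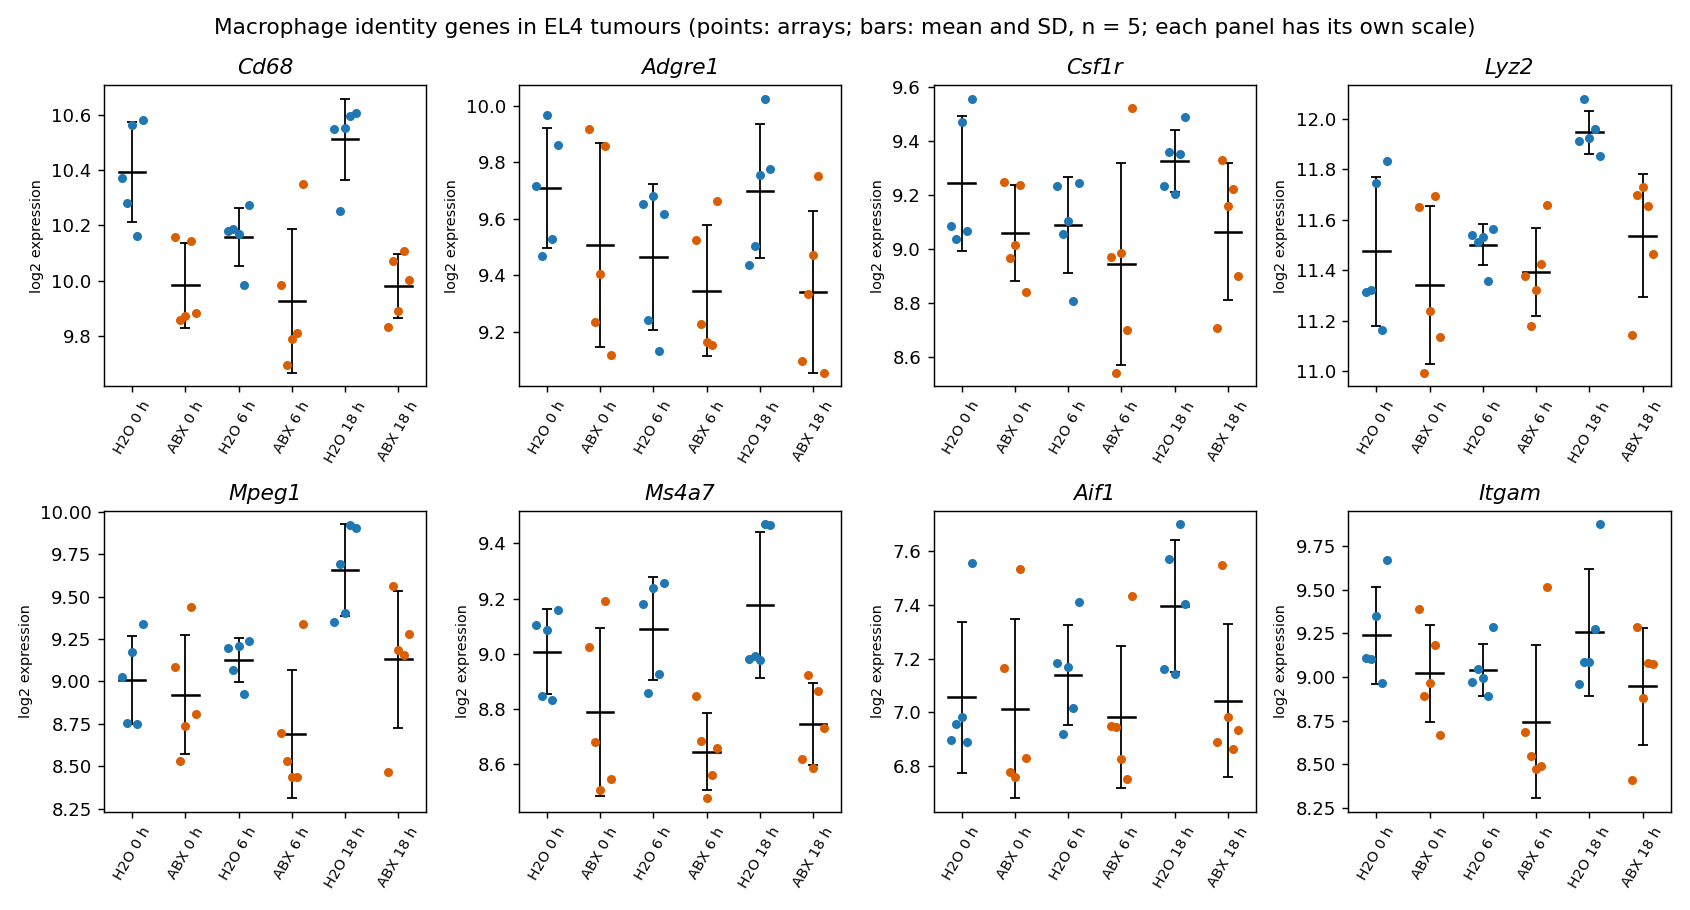
Log2 expression of the 8 macrophage genes on 30 arrays, 1 panel per gene with its own vertical scale; points are arrays (blue water, orange antibiotics), and bars show the mean and SD of 5 arrays. In 7 of the 8 panels the water group at 18 h has the highest mean; its 5 Cd68 values lie between 10.25 and 10.60 and those of the antibiotic group at 18 h between 9.83 and 10.11.

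Cd68, the lysosomal glycoprotein (array row 10387536), gave the clearest separation. Before the drug its log2 values in water mice were 10.37, 10.28, 10.56, 10.16 and 10.58 on arrays 1 to 5, and in antibiotic mice 10.16, 9.86, 9.87, 10.14 and 9.88. The lowest water array was just above the highest antibiotic array. At 6 h the water arrays read 10.18, 10.19, 10.17, 9.99 and 10.27 and the antibiotic arrays 9.98, 9.69, 9.79, 9.81 and 10.35. Here the groups overlapped through antibiotic array 5, which carried the high muscle signal and was above every water array. At 18 h the water arrays read 10.55, 10.25, 10.55, 10.60 and 10.60 and the antibiotic arrays 9.83, 10.07, 9.89, 10.11 and 10.00. These groups did not overlap, although water array 2 stood well below the other 4 of its group.

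The difference in Cd68 (antibiotics minus water, log2, with the SE of the model) was -0.41 ± 0.102 at 0 h, with an adjusted p of 0.148 by limma. It was -0.23 ± 0.102 at 6 h, with an adjusted p of 0.199. At 18 h it was -0.53 ± 0.102, with an adjusted p of 0.00197. Averaged over the 3 times it was -0.39 ± 0.0587, with an adjusted p of 9.13e-05. The calls at 18 h and for the average held in all 38 alternative settings tried. Without antibiotic 6 h array 5 the limma adjusted p of Cd68 became 0.0314 at 0 h and 0.0249 at 6 h, where the difference was -0.34. Leaving out all 3 arrays rich in skin or muscle genes gave 0.0316 at 0 h and 0.0299 at 6 h. The 0 h difference did not move in either fit, since no 0 h array was left out.

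Ms4a7, the CD20-like membrane protein (row 10466200), differed most evenly over the times after the drug. At 0 h the water arrays read 9.10, 8.85, 9.09, 8.83 and 9.16 and the antibiotic arrays 9.02, 8.68, 8.50, 9.19 and 8.55, so that antibiotic arrays 1 and 4 lay within or above the water range. At 6 h the water arrays read 9.18, 8.86, 9.24, 8.92 and 9.25 and the antibiotic arrays 8.85, 8.68, 8.47, 8.56 and 8.66. The groups did not overlap at this time, and Ms4a7 was the 1 member that was not highest on antibiotic array 5. At 18 h the water arrays read 8.98, 8.99, 8.98, 9.47 and 9.47 and the antibiotic arrays 8.62, 8.92, 8.58, 8.86 and 8.73, again without overlap. Water arrays 4 and 5 stood clear of the other 3.

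For Ms4a7 the difference at 0 h was -0.22 ± 0.126, with an adjusted p of 0.851 by limma. At 6 h it was -0.45 ± 0.126 (adjusted p = 0.042, limma) and at 18 h -0.43 ± 0.126 (adjusted p = 0.0313, limma). Averaged over the times it was -0.37 ± 0.0725, with a limma adjusted p of 0.0018, and this call held in all 38 settings. The 6 h call was lost when any of water 6 h arrays 1, 3, 4 and 5 or antibiotic 6 h arrays 2, 3 and 4 was left out, with adjusted p-values from 0.0513 to 0.136. It was also lost without the 3 arrays rich in skin or muscle genes (0.0573). The 18 h call was lost without water 18 h array 4 (0.0928) or 5 (0.0843), or without antibiotic 18 h array 1 (0.0933) or 3 (0.0746).

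Mpeg1, which encodes the phagosomal pore protein perforin-2 (row 10461721), differed by more than Ms4a7 at 18 h but with a wider spread. At 0 h the water arrays read 9.03, 8.76, 9.17, 8.75 and 9.34 and the antibiotic arrays 9.09, 8.53, 8.74, 9.44 and 8.81, and the groups were interleaved. At 6 h the water arrays read 9.20, 9.07, 9.21, 8.93 and 9.24. The antibiotic arrays at that time read 8.70, 8.53, 8.44, 8.44 and 9.34, so 4 of the 5 lay below every water array and array 5 above them all. At 18 h the water arrays read 9.35, 9.69, 9.40, 9.92 and 9.90 and the antibiotic arrays 8.47, 9.56, 9.19, 9.16 and 9.28, with overlap through antibiotic array 2.

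The Mpeg1 difference was -0.09 ± 0.185 at 0 h (adjusted p = 0.999, limma) and -0.44 ± 0.185 at 6 h (adjusted p = 0.18, limma). At 18 h it was -0.52 ± 0.185, with a limma adjusted p of 0.0825. Averaged over times it was -0.35 ± 0.107 and passed narrowly, with an adjusted p of 0.0454. That call was kept in 16 of 38 settings. Of the 30 fits that left out 1 array it was kept in 10, those without water 0 h array 2 or 4, antibiotic 0 h array 1 or 4, water 6 h array 4, antibiotic 6 h array 5, water 18 h array 1 or 3, or antibiotic 18 h array 2 or 5, and the largest adjusted p among the other 20 was 0.0816. Without antibiotic 6 h array 5 the 6 h difference of Mpeg1 was -0.60, with an adjusted p of 0.0388, and the 18 h difference had an adjusted p of 0.0455. At 18 h it was 0.0441 without antibiotic array 2.

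Lyz2, the macrophage lysozyme (row 10372648), was separated at 18 h and not before. At 0 h the water arrays read 11.31, 11.32, 11.74, 11.16 and 11.83 and the antibiotic arrays 11.65, 10.99, 11.24, 11.69 and 11.13. At 6 h the water arrays read 11.54, 11.51, 11.53, 11.36 and 11.56 and the antibiotic arrays 11.38, 11.18, 11.32, 11.42 and 11.66. The groups overlapped at both times. At 18 h the water arrays read 11.91, 12.08, 11.92, 11.96 and 11.85 and the antibiotic arrays 11.14, 11.70, 11.73, 11.65 and 11.46, and every water array was above every antibiotic array.

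The Lyz2 difference at 18 h was -0.41 ± 0.131 and fell just short of the threshold, with an adjusted p of 0.0529 by limma. It passed in 10 of 38 settings: with quantile normalisation (0.0349), with genes above the median mean (0.0262), and, with adjusted p-values from 0.0419 to 0.0476, without water 0 h array 3, 4 or 5, antibiotic 0 h array 1, 2 or 4, antibiotic 6 h array 5 or antibiotic 18 h array 3. At 0 h and 6 h the differences in Lyz2 were -0.13 ± 0.131 and -0.11 ± 0.131, with adjusted p-values of 0.999 and 0.656 by limma. The neighbour Lyz1 varied more between arrays than Lyz2. Its difference at 18 h was -0.40 ± 0.296, with an adjusted p of 0.534 by limma, and at 6 h 0.08 ± 0.296 (adjusted p = 0.898).

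The remaining 4 genes passed the test at no time. Csf1r, the growth factor receptor (row 10456071), had 0 h means of 9.24 ± 0.250 (SD, n = 5) with water and 9.06 ± 0.178 with antibiotics, and 18 h means of 9.33 ± 0.114 and 9.06 ± 0.255. The Csf1r difference at 18 h was -0.26 ± 0.143, with an adjusted p of 0.326 by limma. Adgre1 (row 10446282) had 18 h means of 9.70 ± 0.237 with water and 9.34 ± 0.286 with antibiotics, a difference of -0.36 ± 0.161 with a limma adjusted p of 0.194. Aif1 (row 10450484) had 18 h means of 7.40 ± 0.246 and 7.04 ± 0.285 and a difference of -0.35 ± 0.161, with a limma adjusted p of 0.208. Itgam (row 10557862) differed at 18 h by -0.31 ± 0.189, with an adjusted p of 0.408 by limma. Its 95% interval ran from -0.70 to 0.08, so a fall as large as that of Cd68 was within reach of the data. At 6 h the Itgam difference was -0.30 ± 0.189, and the antibiotic arrays read 8.68, 8.55, 8.48, 8.49 and 9.51, of which the first 4 lay below all 5 water arrays (8.97, 9.05, 8.99, 8.89 and 9.28).

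Counted over the 8 genes, 0 were called at 0 h, where 0.0903% of all genes were called, and 1 gene, Cd68, had an unadjusted p under 0.05, against 1317 of all genes. At 6 h 1 was called lower, Ms4a7, against 2.64% of all genes called lower and 3.77% called in either direction. At 18 h 2 were called lower against 3.34% of all genes (7.85% in either direction), and 6 had an unadjusted p under 0.05, against 3984 of all genes. For the average over times 3 were called lower against 4.07% of all genes (6.65% in either direction), and 7 had an unadjusted p under 0.05, against 3744 of all genes. No member was called higher in any of these comparisons. The arrays of the groups did not overlap for 1 member at 0 h (Cd68), against 0.762% of all genes in that direction. They did not overlap for 1 at 6 h (Ms4a7), against 3.42%, and for 3 at 18 h (Cd68, Ms4a7 and Lyz2), against 2.46%. The members vary together between arrays, as given below, so the 8 counts are not independent.

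**Figure D2:**
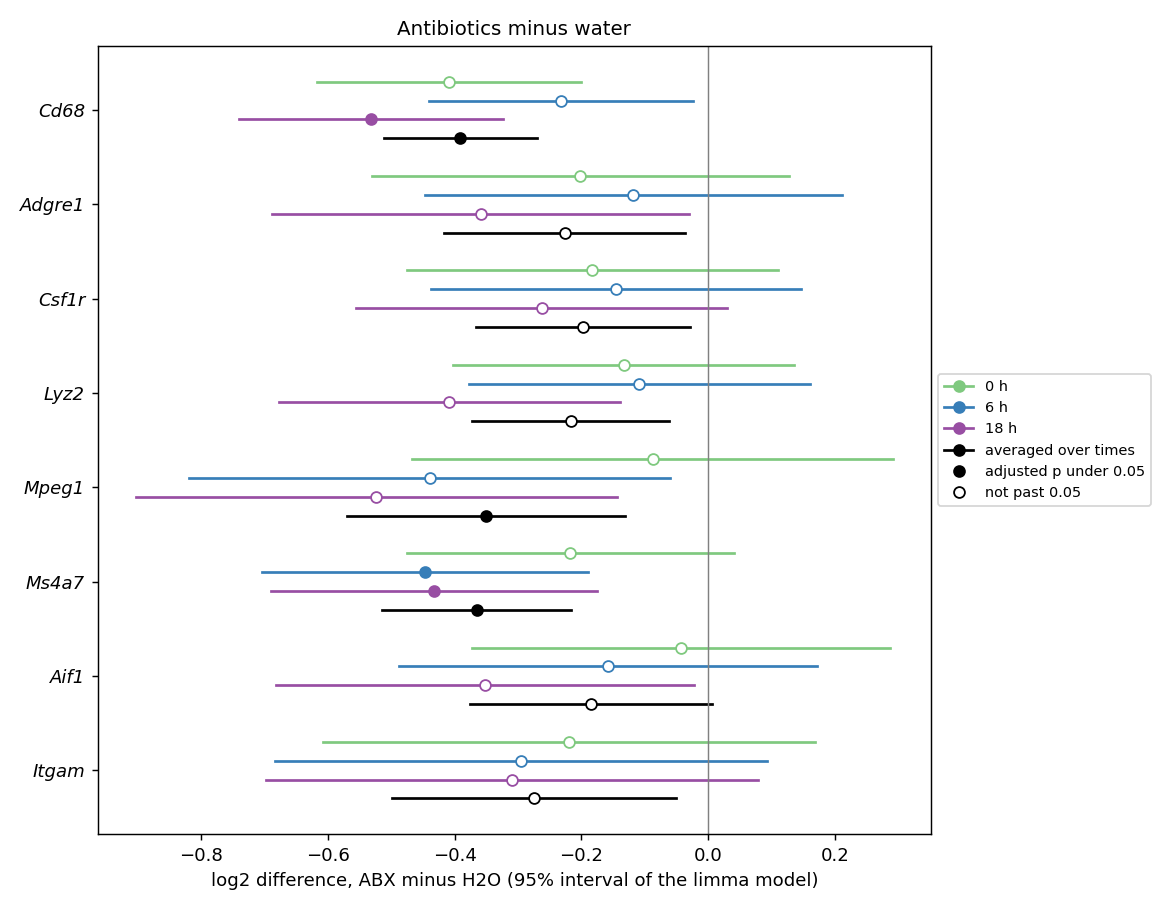
Log2 difference, antibiotics minus water, for each of the 8 genes at 0, 6 and 18 h and averaged over times; points are limma estimates from 30 arrays, lines their 95% intervals, and filled points have an adjusted p under 0.05. All points lie left of 0, and the filled ones are Cd68 at 18 h and averaged, Ms4a7 at 6 h, 18 h and averaged, and Mpeg1 averaged.

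One array stood apart at 6 h. Antibiotic 6 h array 5 was the highest of its group for 7 of the 8 members, and it was also the array with the skeletal muscle mean of 1.61. It also had the highest list mean of its group for neutrophil, natural killer, dendritic, T cell and endothelial genes. It did not for fibroblast, mast cell, B cell or keratinocyte genes. Without it the members called lower numbered 3 at 6 h in place of 1, 4 at 18 h in place of 2 and 6 for the average in place of 3. Csf1r and Itgam then had adjusted p-values of 0.025 and 0.0193 for the average over times, by limma. The differences at 0 h and 18 h did not move in that fit, since they use no 6 h array. Over all fits that left out 1 array, calls over all genes reached 1420 at 6 h and 1852 at 18 h, against 752 and 1566 with all arrays. For the average they reached 2251, against 1325. Leaving out all 3 arrays rich in skin or muscle genes gave 5 for the average, Csf1r (0.0352) and Itgam (0.0271) being added. At 6 h the count stayed 1, with Cd68 in place of Ms4a7. The part of muscle tissue or of other cell types in these values was not tested.

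The second question was how the genes changed with time after oxaliplatin. In water mice Lyz2 and Mpeg1 rose between 0 and 18 h, to 1.385 and 1.563 times their level, and Cd68 and Lyz2 rose between 6 and 18 h. Adgre1, Csf1r and Itgam had 18 h means close to those at 0 h. In antibiotic mice no member was called at any time. Between 0 and 6 h no member was called in either kind of mouse.

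Lyz2 in water mice moved from a mean of 11.48 ± 0.295 (SD, n = 5) at 0 h through 11.50 ± 0.0821 at 6 h to 11.95 ± 0.0839 at 18 h. The change from 0 to 18 h was 0.47 ± 0.131, with an adjusted p of 0.0147 by limma, and that from 6 to 18 h was 0.44 ± 0.131, with an adjusted p of 0.0311. The 18 h arrays lay above all arrays of either earlier time, and the spread within the group was smaller at 6 and 18 h than at 0 h. The first change was lost without water 0 h array 4 (adjusted p = 0.0612). The second was lost without water 6 h array 1, 2, 4 or 5 or water 18 h array 1, 2 or 3, with adjusted p-values from 0.0523 to 0.0814.

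Mpeg1 in water mice moved from 9.01 ± 0.257 at 0 h through 9.13 ± 0.129 at 6 h to 9.65 ± 0.271 at 18 h (SD, n = 5). The change from 0 to 18 h was 0.64 ± 0.185, with a limma adjusted p of 0.018, and it was lost without water 0 h array 2 (0.0528) or 4 (0.0585). From 6 to 18 h Mpeg1 differed by 0.53 ± 0.185, with an adjusted p of 0.0722, although its arrays at the 2 times did not overlap. It was 0.0399 without antibiotic 6 h array 5 and 0.0432 without antibiotic 18 h array 1.

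Cd68 in water mice moved from 10.39 ± 0.180 at 0 h to 10.16 ± 0.105 at 6 h and 10.51 ± 0.146 at 18 h (SD, n = 5). Its difference between 0 and 6 h was -0.23 ± 0.102, with an adjusted p of 0.383 by limma. The rise from 6 to 18 h was 0.35 ± 0.102, with a limma adjusted p of 0.0272, and array 2 of the 18 h group lay within the range of the 6 h arrays. This call was lost without water 6 h array 4 (0.0831) or water 18 h array 1 (0.0642), 3 (0.063), 4 (0.0505) or 5 (0.0541). From 0 to 18 h Cd68 differed by 0.12 ± 0.102 (adjusted p = 0.532). The means of Adgre1, Csf1r and Itgam in water mice were also lower at 6 h than at 0 and 18 h. Courses were not compared between members by a test.

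The other members gave smaller values. Aif1 in water mice was 0.34 ± 0.161 higher at 18 h than at 0 h, with an adjusted p of 0.178 by limma, which became 0.0488 without water 0 h array 5. Ms4a7 differed by 0.17 ± 0.126, Csf1r by 0.08 ± 0.143, Itgam by 0.02 ± 0.189 and Adgre1 by -0.01 ± 0.161 over the same interval, with adjusted p-values from 0.446 to 0.984 by limma. Adgre1, the surface antigen, was the 1 member whose highest group mean was that of water mice at 0 h.

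Of the 8 members, 0 were called between 0 and 6 h in water mice, against 1.11% of all genes, and 1 (Cd68) had an unadjusted p under 0.05, against 2113 of all genes. Between 0 and 18 h 2 were called higher, against 6.18% of all genes (14.1% in either direction), and their arrays did not overlap, against 4.53%. Between 6 and 18 h 2 were called higher, against 3.12% of all genes (9.58% in either direction), and the arrays of 2 (Lyz2 and Mpeg1) did not overlap, against 3.61%. All 8 were positive between 6 and 18 h, with a median of 0.25 against 0.02 over all genes. From 0 to 18 h the median was 0.15, against 0.01 over all genes. These comparisons share the water 18 h arrays with the antibiotic comparison at 18 h, so the values are set side by side and not counted as separate evidence.

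In antibiotic mice 0 members were called by limma in any of the 3 time comparisons, against 0% of all genes between 0 and 6 h, 1.22% between 0 and 18 h and 2.12% between 6 and 18 h. At an unadjusted p under 0.05 the members numbered 0, 0 and 1 in the same order, against 2011, 2223 and 3196 of all genes. Mpeg1 was the 1, with 0.44 ± 0.185 between 6 and 18 h and an adjusted p of 0.227. Lyz2 differed by 0.19 ± 0.131 between 0 and 18 h, against 0.47 in water mice, and Mpeg1 by 0.21 ± 0.185, against 0.64.

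**Figure D3:**
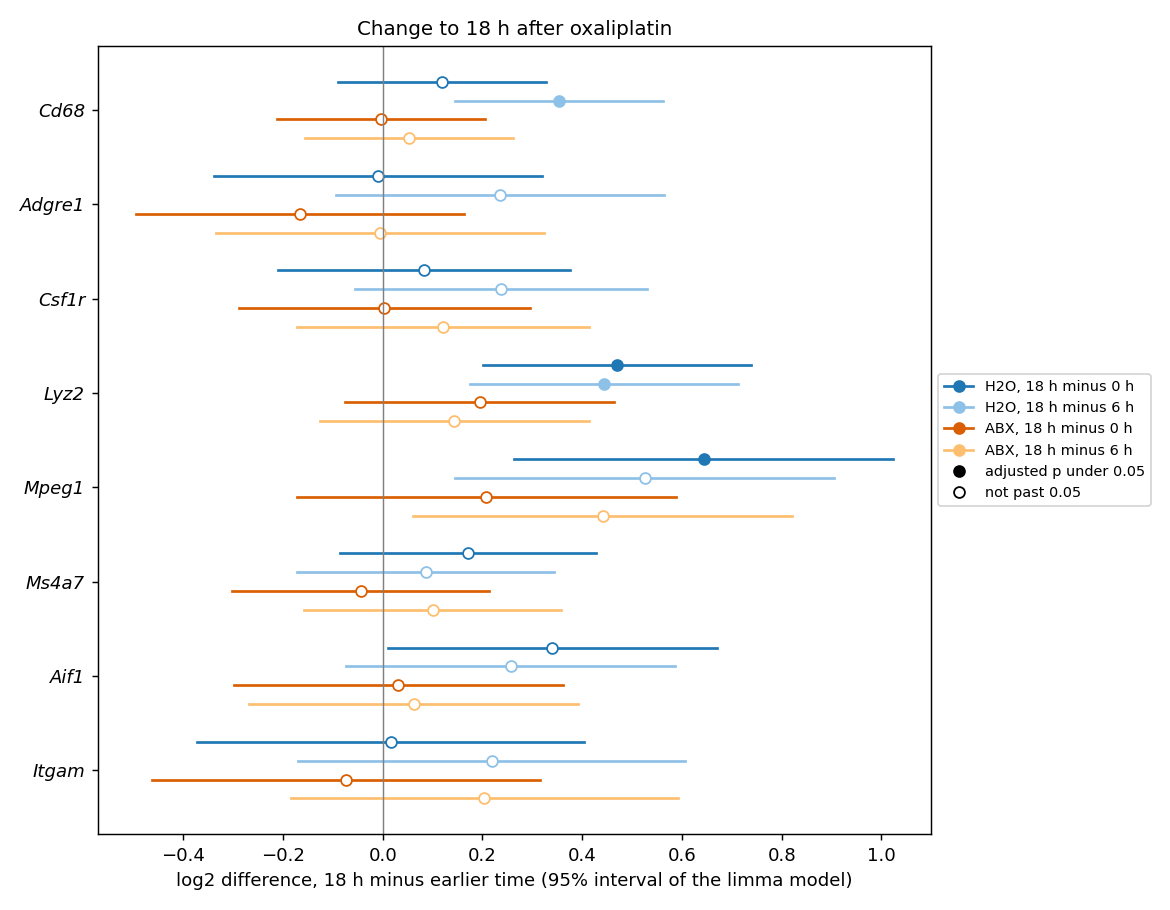
Log2 change to 18 h after oxaliplatin from 0 h or 6 h, for water (blue) and antibiotic (orange) mice; points are limma estimates with 95% intervals, filled where the adjusted p is under 0.05. The filled points are Lyz2 and Mpeg1 from 0 h and Cd68 and Lyz2 from 6 h, all in water mice; antibiotic intervals overlap the water intervals for every gene.

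The difference between the 2 kinds of mice in their change with time was tested directly and did not pass for any member. For the change from 0 to 18 h the interaction was negative for all 8 genes, with a median of -0.19 against 0.00 over all genes. Mpeg1 had the largest at -0.44 ± 0.262, with an adjusted p of 0.678 by limma. Of all genes 0.105% were called, 0 members had an unadjusted p under 0.05, and 1893 of all genes did. For the change from 0 to 6 h, 0 members and 0% of all genes were called by limma, and 0 members against 1964 genes had an unadjusted p under 0.05. The calls in water mice and their lack in antibiotic mice therefore do not show that the time course differed.

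Ranked by mean, the 6 groups fell into a similar order for most members. Water at 18 h was highest for 7 of 8, Adgre1 being the exception. Antibiotics at 6 h was lowest for 6, with antibiotics at 0 h lowest for Lyz2 and antibiotics at 18 h lowest for Adgre1. Of 40 pairs of groups next to each other in these orders, the arrays overlapped in 39. The 1 that did not overlap was Lyz2 between water and antibiotics at 18 h, with means of 11.95 and 11.54. Lists of other cell types shared parts of this order. Water at 18 h had the highest list mean for neutrophil (0.151), natural killer (0.189), mast cell (0.133), fibroblast (0.217) and endothelial (0.145) genes. It was also highest for B cell (0.129) and T cell (0.067) genes, but not for keratinocyte or muscle genes, and tied for dendritic genes. Antibiotics at 6 h was lowest for neutrophil, fibroblast, endothelial and mast cell genes, but not for the other cell types.

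Arrays of the same group differed from each other more in these genes than in most. The residual SD of the 8 members ran from 0.168 for Cd68 to 0.319 for Itgam, between the 85th and the 97.6th percentile of all genes, whose median was 0.115. The arrays that were high were high for most members at once. Array 5 was highest for 7 of 8 members in the water group at 0 h, the water group at 6 h and the antibiotic group at 6 h. Array 4 of the water group was lowest for 6 of 8 members at 0 h and again at 6 h, and antibiotic 18 h array 1 for 5.

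**Figure D4:**
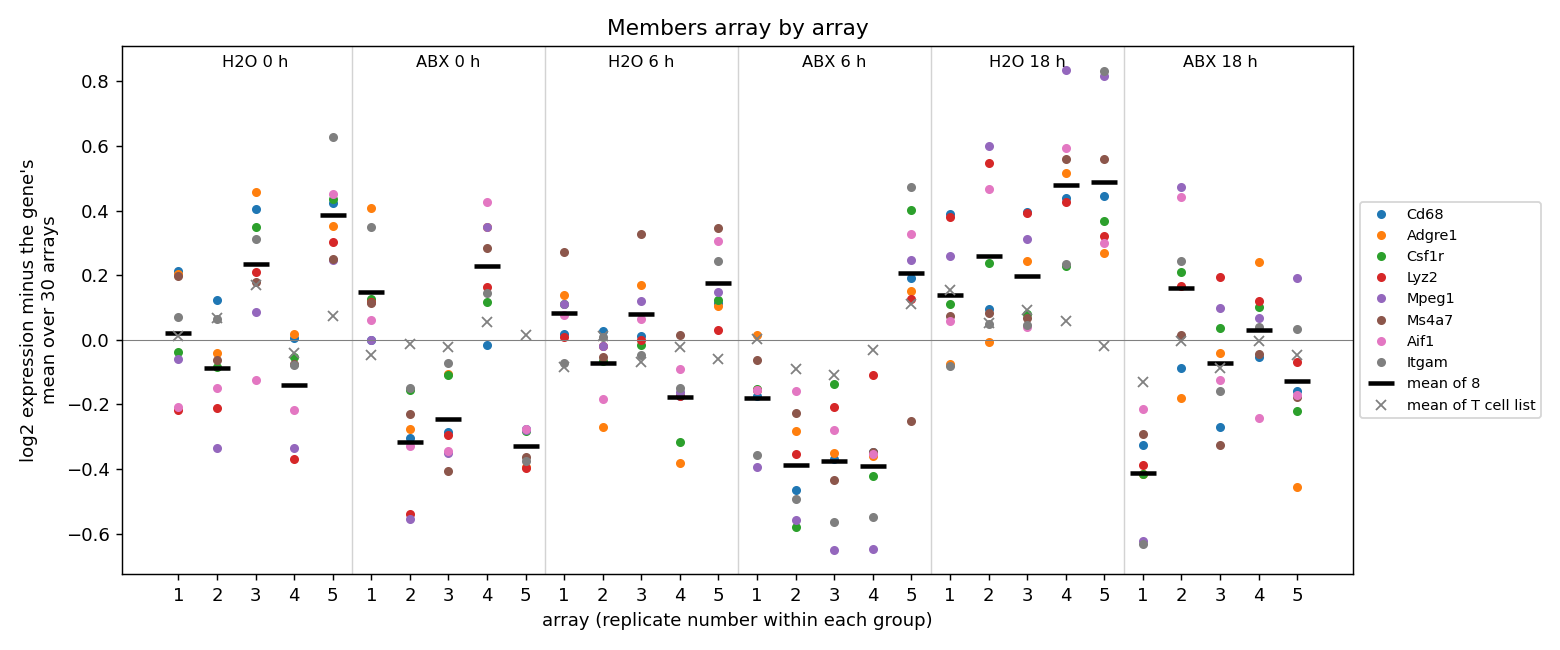
Each member's log2 value minus its mean over 30 arrays, array by array, with the mean of the 8 (black bars) and the mean of the T cell list (crosses). The black bars run from -0.41 on antibiotic 18 h array 1 to 0.49 on water 18 h array 5, and the crosses from -0.13 to 0.17. Lists of other cell types are not drawn, and some of them ranged more widely than the T cell list.

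Centred on each gene's own mean, the 8 members together averaged 0.31 in the water group at 18 h, with arrays from 0.14 to 0.49. In the antibiotic group at 18 h they averaged -0.08, from -0.41 to 0.16. The antibiotic group at 6 h held the lowest average, -0.23, with 4 arrays between -0.39 and -0.18 and array 5 at 0.21. Skeletal muscle genes followed the same arrays in part. Their mean was 0.75 and 0.86 on water 0 h arrays 3 and 5, where the members averaged 0.23 and 0.39, and -0.79 on antibiotic 18 h array 1, where the members averaged -0.41. Other arrays did not follow. On water 6 h array 1 and water 18 h array 2 the muscle means were -0.75 and -0.36, where the members averaged 0.08 and 0.26. On water 18 h arrays 4 and 5, where the members averaged 0.48 and 0.49, the muscle means were 0.01 and -0.01. At 18 h the water and antibiotic groups had muscle means of -0.02 and -0.15. Lists of other cell types ranged over the arrays as well. Neutrophil means ran from -0.372 to 0.434 and natural killer means from -0.345 to 0.402. Fibroblast means ran from -0.37 to 0.352 and endothelial means from -0.304 to 0.21, both lowest on antibiotic 18 h array 1. Dendritic means stayed between -0.201 and 0.223, B cell means between -0.159 and 0.274 and mast cell means between -0.18 and 0.224. The part of muscle tissue or these lists in the results was not tested.

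With group means removed, every pair of members was positively correlated over the 30 arrays. The median Pearson r over the 28 pairs was 0.692. The closest pair was Mpeg1 and Itgam, with r = 0.845 and Spearman's rho = 0.856, and r = 0.767 without the 2 arrays farthest from the median of the first gene. Their permutation p of 1e-05 is the smallest that the 100000 draws within groups allow. The weakest pair was Lyz2 and Ms4a7, with r = 0.489, rho = 0.455 and an adjusted permutation p of 0.0155 over the 28 pairs. It was 0.462 without the 2 arrays. All 28 pairs had an adjusted permutation p under 0.05, also without the 3 arrays rich in skin or muscle genes, where the median r was 0.702. Ms4a7 was the least tied to the others, with a median r of 0.602, and Csf1r the most, with 0.796. All genes on an array share its RNA and its scaling, and the median r was 0.686 after array medians were subtracted.

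**Figure D5:**
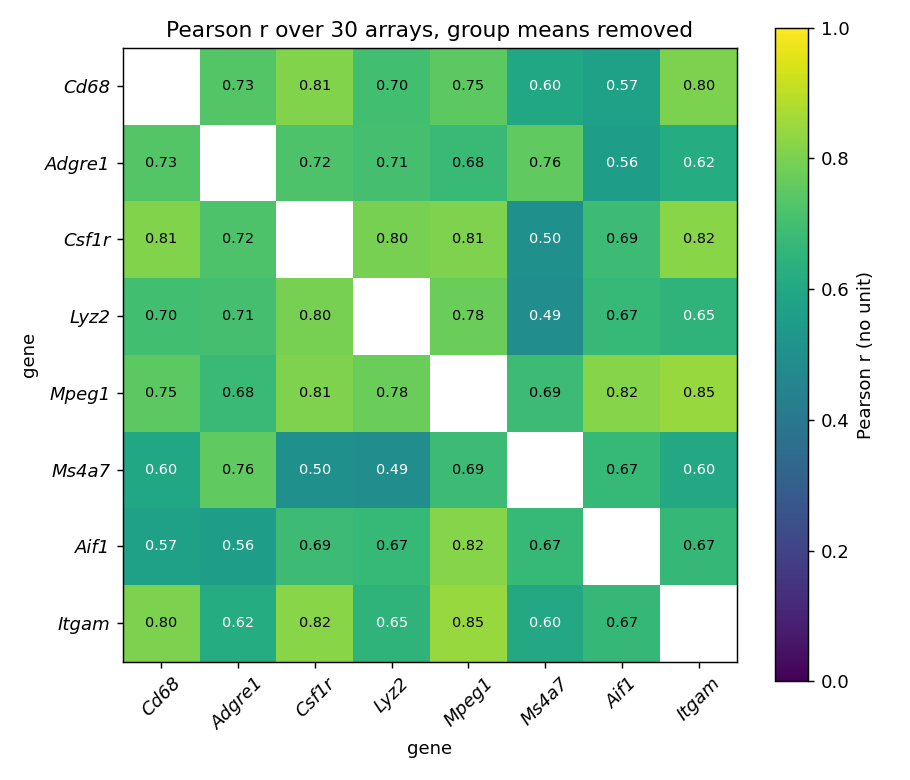
Pearson r between the 8 members over 30 arrays after the group means were subtracted; colour and the printed value in each cell give r. The cells run from 0.49 for Lyz2 and Ms4a7 to 0.85 for Mpeg1 and Itgam. The rows of Csf1r, Mpeg1 and Itgam hold most of the values above 0.80.

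The genes whose pattern over all 30 arrays was most like the mean of the 8, groups included, were found by ranking all other genes by Pearson r. The first 8 were Spi1 (0.954), Tyrobp (0.951), Rnf130 (0.948), Ctss (0.945), Xdh (0.936), Pla2g4a (0.935), Adap2 (0.927) and Sirpa (0.925). Spi1 encodes PU.1, Tyrobp the signalling adaptor DAP12 and Ctss the protease cathepsin S. For Cd68 the nearest were the lysosomal genes Ctsb (0.951), Ctsa (0.95) and Psap (0.939). Adgre1 had looser neighbours, Rassf4 (0.856), Wdfy3 (0.853) and Prune2 (0.853). For Csf1r they were Cfp (0.927), which encodes the complement factor properdin, Hpse (0.923) and Sqor (0.919).

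Tmbim4 was among the nearest 3 genes of Lyz2 (0.9), Mpeg1 (0.94) and Aif1 (0.879). Lyz2 was also close to Tgfbr2 (0.896), a receptor chain for TGF-beta, and Smpdl3a (0.888), and Mpeg1 to Slamf7 (0.94) and Ctss (0.936). Aif1 was nearest to Ms4a6c (0.912) and Fcgr1 (0.887), the high-affinity receptor for IgG. For Ms4a7 the nearest were Galc (0.864), Fgl2 (0.847) and C3ar1 (0.847), and for Itgam they were Gda (0.933), Rras2 (0.917) and C5ar1 (0.916), a receptor for the complement fragment C5a. These are rankings over 30 arrays that share groups and RNA, and describe likeness only.

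The pathway around the members was read from 5 gene lists. They were chosen with earlier results of these data known, so their counts describe these data and are not a test of the pathway. Over all genes 2.64% were called lower with antibiotics at 6 h, 3.34% at 18 h and 4.07% for the average over times. In water mice 6.18% of all genes were called higher from 0 to 18 h and 3.12% from 6 to 18 h. In the list of growth factors, receptors and regulators, 13 genes were tested and 4 were called lower with antibiotics at 18 h: Trem2, Cebpa, Spi1 and Maf. The median of the list was -0.28, against -0.01 over all genes. Spi1 had 18 h means of 9.90 ± 0.132 with water and 9.40 ± 0.243 with antibiotics, without overlap, and a difference of -0.50 ± 0.127 with an adjusted p of 0.0134 by limma, which was 0.0663 without antibiotic 18 h array 1. Trem2, a lipid-sensing receptor that signals through Tyrobp, differed by -0.31 ± 0.0683 (adjusted p = 0.00492), and Cebpa, a myeloid transcription factor, by -0.29 ± 0.0692 (adjusted p = 0.00881). Maf, a regulator of mature macrophages, differed by -0.38 ± 0.105 (adjusted p = 0.0249), a call lost without water 18 h array 4 or antibiotic 18 h array 1 or 3, with adjusted p-values of up to 0.0843.

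The ligands of Csf1r were not called with antibiotics at any time. Csf1 differed at 18 h by -0.25 ± 0.116, with an adjusted p of 0.21 by limma, and Il34 by -0.17 ± 0.0894, with an adjusted p of 0.317. In water mice both rose from 0 to 18 h, Csf1 by 0.37 ± 0.116 (adjusted p = 0.0296) and Il34 by 0.27 ± 0.0894 (adjusted p = 0.0408), and Trem2 was the third gene of the list called then, at 0.28 ± 0.0683 (adjusted p = 0.00606). Over the arrays Csf1 had r = 0.668 and Il34 r = -0.16 with the mean of the 8 members. The rise of Csf1 was lost without water 0 h array 1 or 2 or water 18 h array 4 or 5, and that of Il34 without water 0 h array 1, 4 or 5 or water 18 h array 1 or 3, with adjusted p-values of up to 0.0926 and 0.135 over all settings.

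Of 19 further macrophage genes tested, 4 were called lower with antibiotics at 18 h and 6 for the average over times, with a median of -0.33 at 18 h. C1qb, a chain of the complement component that tags dying cells, differed at 18 h by -0.51 ± 0.11, with an adjusted p of 0.00476 by limma. Fcer1g, the shared signalling chain of Fc receptors, differed by -0.40 ± 0.0938 (adjusted p = 0.00892), and Mertk, a receptor for engulfing dead cells, by -0.57 ± 0.159 (adjusted p = 0.0255). Ctss was the other at 18 h, and Msr1 and C1qc were added in the average, where 9 were called without the 3 arrays rich in skin or muscle genes. The Mertk call was lost without water 18 h array 2 or 5 or antibiotic 18 h array 1, or with the 2 groups fitted alone, and the highest adjusted p was 0.114. That of Ctss was lost without water 18 h array 2, 4 or 5 or antibiotic 18 h array 1, 3, 4 or 5, with adjusted p-values of up to 0.155. In water mice Msr1, a scavenger receptor, rose by 0.59 ± 0.129 from 0 to 18 h (adjusted p = 0.00205, limma), and Ctss by 0.44 ± 0.146 (adjusted p = 0.0439), a call lost without water 0 h array 1, 2, 3 or 4, water 6 h array 2 or water 18 h array 2, 4 or 5, with adjusted p-values of up to 0.129.

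Lysosomal genes, the compartment of Cd68, were lower in the larger share of their list. Of 12 tested, 9 were called lower with antibiotics at 18 h and 9 for the average over times, with a median of -0.35 at 18 h. Ctsd and Ctsb, the proteases cathepsin D and B, differed by -0.48 ± 0.0772 (adjusted p = 0.000565, limma) and -0.37 ± 0.0641 (adjusted p = 0.00105). Lgmn, the protease legumain, differed by -0.41 ± 0.0809 (adjusted p = 0.00267), and these 3 calls held in all 38 settings. At 6 h 1 was called lower, Npc1, the cholesterol transporter of lysosomes, by -0.18 ± 0.0501 (adjusted p = 0.0422), a call kept in 25 of 38 settings and lost without the 3 arrays rich in skin or muscle genes, and at 0 h 0 were. In water mice 6 of the 12 rose from 0 to 18 h, led by Npc1 (0.22 ± 0.0501, adjusted p = 0.00323), Ctsd (0.33 ± 0.0772, adjusted p = 0.00354) and Gusb (0.19 ± 0.0444, adjusted p = 0.00463). The count of 6 was 3 without water 0 h array 2 and 3 after array medians were subtracted. Lysosomal genes are expressed by most cells, EL4 cells included, so they do not mark macrophages.

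Partners of Itgam in adhesion formed another list. Itgb2, the shared beta chain, differed at 18 h by -0.27 ± 0.0767, with an adjusted p of 0.0294 by limma, from means of 10.93 ± 0.0731 and 10.66 ± 0.133 without overlap. This call was lost without water 18 h array 1 or 3 or antibiotic 18 h array 1 or 3, with adjusted p-values of up to 0.126. Icam1, a ligand of these integrins, was lower by -0.32 ± 0.0653 (adjusted p = 0.00357), and Fermt3, the blood-cell kindlin that activates them, by -0.19 ± 0.0536 (adjusted p = 0.0304), which made 3 of 8 genes called lower. The Fermt3 call was lost without water 18 h array 1, 3 or 4 or antibiotic 18 h array 1, 2 or 4, with adjusted p-values of up to 0.113. When the 2 groups were fitted alone 0 of the 8 were called, and Icam1 had an adjusted p of 0.0614. The list median was -0.06. In water mice Icam1 rose by 0.30 ± 0.0653 by 6 h (adjusted p = 0.0158, no longer called, at up to 0.0606, without water 0 h array 1 or 2, water 6 h array 1 or 5, or the 3 arrays rich in skin or muscle genes) and by 0.64 ± 0.0653 by 18 h (adjusted p = 3.97e-07). Between 6 and 18 h Itgb2 rose by 0.31 ± 0.0767 (adjusted p = 0.0109), together with Icam1, Fermt3 and Tln1. Itgb2 and Fermt3 are also expressed by T cells.

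Chemokines that draw monocytes were measured with 8 genes, of which 3 were called lower with antibiotics at 18 h and 4 for the average over times. Ccl2, the main ligand of the monocyte receptor CCR2, differed at 18 h by -0.60 ± 0.159, with an adjusted p of 0.0178 by limma. Ccl7 differed by -0.53 ± 0.153 (adjusted p = 0.0291) and Ccl12 by -0.45 ± 0.141 (adjusted p = 0.048), and the median of the 8 was -0.28. Without antibiotic 18 h array 1, 0 of the 8 were called. Ccl2 was also lost without antibiotic 18 h array 4 (adjusted p of up to 0.0819), Ccl7 was called in 32 of 38 settings, and Ccl12 in 11 of 37. In water mice Ccl2 rose by 0.92 ± 0.159 from 0 to 18 h (adjusted p = 0.000191) and Ccl7 by 0.76 ± 0.153 (adjusted p = 0.00102), and both calls held in all 38 settings. None of the 5 lists had a gene called at 0 h, in the time comparisons of antibiotic mice or in either interaction.

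Markers of other cell types were counted in the same way, against the same shares of all genes. At 18 h with antibiotics 0 of 10 neutrophil genes were called, with a median of -0.06, which is given because neutrophils also express Itgam and Lyz2. All 10 were negative. By the same coarse rank as for T cell genes, Ngp, Ltf, Ly6g, Mmp8, Retnlg and Camp lay between the 12.7th and 32.4th percentile. S100a8, S100a9, Csf3r and Cxcr2 lay between the 50.8th and 67.2nd. A list with this many dim genes limits what its count and median can show. The highest neutrophil list mean on any array was 0.43, in the water group at 18 h. Of 7 dendritic, 7 fibroblast, 6 endothelial, 6 natural killer, 6 keratinocyte and 6 muscle genes 0 were called, with list medians of -0.23 for fibroblast and -0.13 for endothelial genes. Mast cell genes had 2 of 6 called lower (Tpsb2 and Cma1), B cell genes 1 of 5 (Cd79b) and T cell genes 1 of 8 (Cd3d). All 8 T cell, all 7 fibroblast and all 5 B cell genes were negative at 18 h, with a median of -0.12 for the T cell genes. At 6 h Cd3d was instead called higher with antibiotics, and for the average over times Cd5 and Cd3e were called lower. In water mice from 0 to 18 h 2 of 6 mast cell, 2 of 6 endothelial, 1 of 7 fibroblast, 1 of 5 B cell and 1 of 8 T cell genes were called higher, against 6.18% of all genes. Whether these have a part in the values of the members was not tested.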

How the data were processed

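RNA of 30 EL4 tumours was measured on Affymetrix mouse gene arrays, in 6 groups of 5 taken from the labels. The values are on the log2 scale, 28853 rows per array, as deposited by the authors. Partek 6.6 is named in the submitters' processing notes, while the summarisation and normalisation steps are not given in the sources used here. Medians of the arrays ran from 7.253 to 7.365, and no further scaling was applied. The platform's probe-to-gene table gave 21775 rows 1 symbol, 1578 several and 5500 none; only the first were used, with the row of highest mean for the 998 genes that had more than 1, which left 19938 genes.

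All genes were fitted with limma 3.58.1 in R 4.3.3 (lmFit with 6 group means, then eBayes; 24 residual and 3.63 prior degrees of freedom), with 12 contrasts and Benjamini-Hochberg adjustment over all genes within each, called at 0.05. A difference on the log2 scale is given with the model's SE. Levels are not compared between genes, apart from the coarse rank of T cell and neutrophil genes. Correlations between members were tested with 100000 permutations within groups in Python 3.11.15 (numpy 2.4.6, scipy 1.17.1). Lists are described by counts and medians, without a test. The fit was tested on simulated data. The number of arrays limits the precision. The members and lists were chosen with earlier results of these data known. Genes named outside the 8 members are the regulators, partners and near copies of the lists, the genes called in a list with the smallest adjusted p, and those most like the members by Pearson r. Alternatives were other scalings, filters, fits and the omission of each array.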

Additional observations from a re-analysis of the deposited data

Results flagged for a closer look

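In 6 of the 48 groups of 5 arrays of the 8 members, 1 array stood far from the other 4 by Dixon's criterion (0.71 for 5 values), where chance gives about 1 in 20. Antibiotic 6 h array 5 was the high one for Itgam, at 9.51 with the next array at 8.68, and for Mpeg1, at 9.34 with the next at 8.70. Aif1 was high on water 0 h array 5, at 7.56 against 6.98 for the next, and on antibiotic 18 h array 2, at 7.55 against 6.98. Cd68 was low on water 18 h array 2, at 10.25 against 10.55, and Lyz2 was low on water 6 h array 4, at 11.36 against 11.51.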

How the results depend on the processing

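No paired analysis was possible because the labels give no replicate number shared between groups, and numbers by order of deposit pair no samples. None of the 38 alternatives reversed a called value, and the 8 differences with antibiotics stayed negative in all 38 at 6 h, at 18 h and averaged (of 7 genes where the filter on dim genes dropped Aif1), and in 34 at 0 h. The members called at 6 h numbered 0 in place of 1 with array medians subtracted, with quantile normalisation, with only the compared groups fitted and with 1 weight per group. At 18 h they numbered 1 in place of 2 with only the compared groups fitted, and 4 with genes above the median mean. Without the 3 arrays rich in skin or muscle genes they numbered 1 in place of 0 at 0 h, 1 as before at 6 h (Cd68 in place of Ms4a7) and 5 in place of 3 averaged over times. Leaving out 1 array in turn gave 0 to 1 at 0 h, 0 to 3 at 6 h, 1 to 4 at 18 h and 2 to 6 averaged. For water mice it gave 0 to 0 from 0 to 6 h, 0 to 3 from 0 to 18 h and 0 to 3 from 6 to 18 h, and for the antibiotic time courses and both interactions 0 to 0. The cause of these shifts was not tested, except that fitting fewer groups leaves fewer arrays to estimate the spread. An array outside the compared groups does not enter their difference, so its omission changes only the estimated spread and the adjustment. Counts over all genes moved as well without 1 array, from 192 to 1420 at 6 h (752 with all arrays) and from 771 to 1852 at 18 h (1566). For the average over times they ran from 1009 to 2251 (1325). The settings for the 5 pathway lists were added after seeing the data. Without 1 array, called genes at 18 h numbered 7 to 10 in the lysosomal list (9 with all arrays), 2 to 5 in the lists of regulators and of further macrophage genes (4 each), 1 to 3 in the integrin list and 0 to 3 in the chemokine list (3 each). Precision is limited by 5 arrays a group.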
